A study of Homo sapiens with 8 samples.

Results

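Class j transcripts are assembled transcripts that share at least 1 splice junction with a reference transcript but match no reference intron chain in full. They were chosen by the class code j of the combined transcript assembly and joined by transcript identifier to its count table. The assembly held 20988 of them, and 20760 of the 96614 transcripts in the count table belonged to the class. They came from 7304 genes and took 337125 reads.

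Long reads of polyadenylated RNA were made with the PacBio Sequel II. The study used 1 established line of human embryonic stem cells, H1. Undifferentiated cells (hPSC) were kept in mTeSR1 on Matrigel. Endoderm cultures received WNT3A and Activin A. Mesoderm cultures received VEGF, BMP4 and bFGF, together with Activin A for the first day, and ectoderm cultures received the inhibitors A83-01, PNU-74654 and Dorsomorphin. Cultures were collected after 5 days, per the labels. Each of the 4 groups had 2 repeats. Nothing in the labels says that the repeats were separate cultures, so p-values measure only the spread between these libraries.

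Most human genes make several mRNAs from one stretch of DNA. A transcript can start at another promoter and so carry another first exon, it can include or skip an internal exon, it can use a nearby donor or acceptor splice site, or it can end at another last exon. Introns nearly always begin with GT and end with AG, and small exons between long introns are often included in one cell type and skipped in another.

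For 7 of the transcripts described below, the part that sets them apart from the best-expressed reference match of their gene is shown first. All bases are from GENCODE 29 transcripts on GRCh38, in transcript sense. In the first set, capitals mark a short exon that the class j transcript includes and the match leaves out, with 6 bases of each neighbouring exon in lower case. The exons lie at chr11:57806461-57806478 (plus strand, 18 nt), chr17:8576643-8576672 (minus strand, 30 nt) and chr4:2926642-2926675 (plus strand, 34 nt).
CTNND1 exon of 18 nt: gcaaagATGAGTGGTTCTCCAGAGggaaaa
MYH10 exon of 30 nt: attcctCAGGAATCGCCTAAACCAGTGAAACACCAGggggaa
ADD1 exon of 34 nt: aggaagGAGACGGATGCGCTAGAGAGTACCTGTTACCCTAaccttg
The lengths of the CTNND1 and MYH10 exons are multiples of 3, and that of the ADD1 exon is not.

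In the second set each line joins the last 15 bases of an upstream exon (lower case) to the first 15 of the exon it is spliced to (capitals). They show how the class j transcript and its match reach the same downstream exon. The class j introns are chr11:46617891-46644278 (ATG13, plus strand), chr6:34236964-34240736 (HMGA1, plus strand), chr1:1765447-1779904 (NADK, minus strand) and chr6:33270284-33271904 (VPS52, minus strand).
ATG13 class j junction: gccgcagcttcgcagATTCCTATAGGCAAT
ATG13 match, second junction: tagctgggactacagATTCCTATAGGCAAT
HMGA1 class j junction: cggctccaagaaggcCATCCCAGCCATCAC
HMGA1 match, second junction: gcggccgagctcgcgCATCCCAGCCATCAC
NADK class j junction: ctgaccagagagcagGCATCAGTGTTTTTC
NADK match junction: ccgcggcagcgaacgGCATCAGTGTTTTTC
VPS52 class j junction: tcgtaaggttcatagGCGGGTGGTCCTGGG
VPS52 match junction: gaagagggcccgctgGCGGGTGGTCCTGGG
In each pair the capitals are the same and the lower case bases differ. The ATG13 and HMGA1 class j transcripts skip an exon of 56 and 114 nt, and those of NADK and VPS52 begin at another first exon.

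Total counts were 1180888 and 967206 in ectoderm and from 503840 to 586183 in the other 6 libraries. Marker lists followed the labels in part. The 8 pluripotency markers in hPSC summed to 4483 and 4197 CPM, a count per library scaled to the same total, against 418 to 2126 in the layers. The 7 endoderm markers summed to 2288 and 2392 CPM in endoderm and at most 15.1 elsewhere, and the 7 ectoderm markers to 1039 and 807 CPM in ectoderm against 422 and 416 in endoderm, 77 and 139 in hPSC and under 4 in mesoderm. The 8 mesoderm markers summed to 1058 and 1151 CPM in mesoderm, but 7 markers of amnion and trophoblast reached 6601 and 7262 CPM there, against at most 80.3 elsewhere. The list of COL1A1, PECAM1 and CDH5, markers of fibroblasts and endothelium of which 2 had reads, summed to 2924 and 3737 CPM in mesoderm, against at most 250.3 elsewhere. Almost none of that sum was CDH5, whose class j transcript had 4 and 2 reads in mesoderm, 80.0% and 66.7% of the gene. Nearly all of it thus came from 1 other gene. The part of these other cell types in the mesoderm results was not tested. In bulk RNA, fewer cells of a type and less RNA per cell cannot be told apart.

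Class j transcripts were many and mostly rare. Their median was 7 reads over all libraries, with quartiles at 3 and 15, and 12457 of them (60.0%) had fewer than 10 reads. The 396 best covered had at least 100 reads, and the most abundant had 1865. Reference matches (class =) had a median of 22 reads. Of the 7304 genes, 3414 held 1 class j transcript and 1184 held at least 5. NPRL3, a subunit of the GATOR1 complex that restrains mTORC1, held the most, 58, with 324 of the 431 reads of the gene. MBD1, a reader of methylated DNA, held 50, and EPB41, the red cell membrane skeleton protein 4.1, held 45.

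In genes with a class j transcript, about 1 read in 5 belonged to the class. This share pools all those genes, so it also moves with their mix, and the part of the mix was not tested. The hPSC repeats had shares of 20.0% and 21.1% and both ectoderm repeats 20.9%. The endoderm repeats had 18.9% and 18.4%, and the mesoderm repeats 18.1% and 18.2%. Both endoderm and both mesoderm libraries were below all 4 hPSC and ectoderm libraries. The means were 20.5% ± 0.798 (SD, n = 2), 20.9% ± 0.0257, 18.7% ± 0.318 and 18.1% ± 0.0208 for hPSC, ectoderm, endoderm and mesoderm, with p = 0.0286 in an exact permutation test of F over all ways to split the 8 libraries into 4 pairs, whose smallest p is 0.00952. The call was lost in the same exact test without any 1 of the 6 layer libraries (p from 0.0571 to 0.105) and kept without either hPSC library. It was also lost without transcripts of fewer than 10 counts (exact p = 0.0857), with the repeat number as a block (exact p = 0.0833), without all transcripts held by 1 assembly only (exact p = 0.257), and with the median over 705 genes in place of the sum (exact p = 0.0571). Endoderm was highest with the median and without transcripts of fewer than 10 counts.

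Of all counts in a library, the order was different. Class j transcripts took 7.33% and 7.64% of the ectoderm counts, 5.84% and 5.32% in hPSC, 5.77% and 5.90% in mesoderm, and 4.88% and 4.68% in endoderm. Genes with a class j transcript took 35.9% ± 1.01 of the counts in ectoderm and 32.2% ± 0.463 in mesoderm, against 27.2% ± 2.83 in hPSC and 25.6% ± 0.331 in endoderm (SD, n = 2). A gene entered this set through a class j transcript of any assembly. Admission and a high share therefore cannot be told apart, and no test is given. Ectoderm thus stood highest in the class j share of all counts, while its pooled share among the counts of these genes was close to that of hPSC. The ectoderm libraries were also the deepest, and the ectoderm assembly contributed the most class j transcripts.

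**Figure D1:**
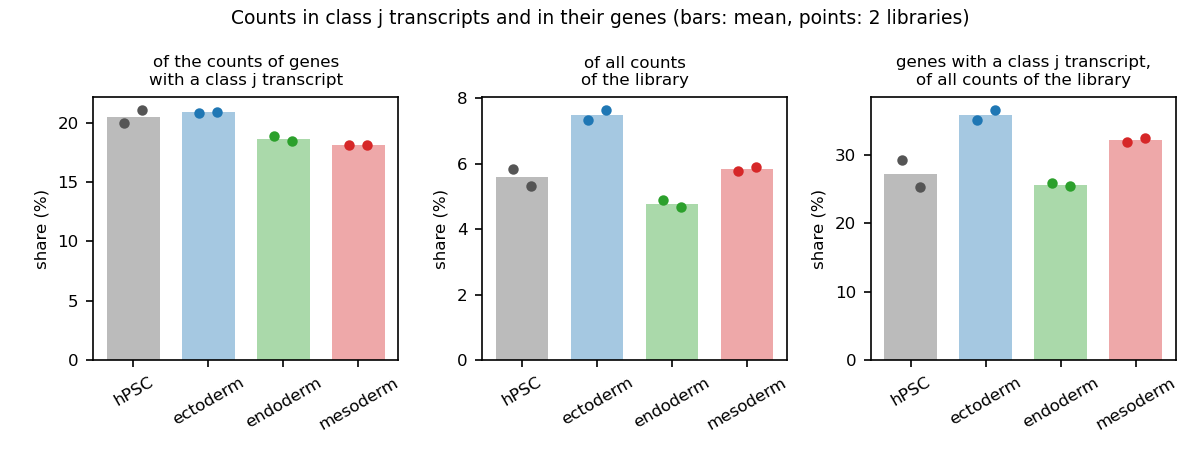
Share of counts (%) in class j transcripts among the counts of their genes (left) and of all library counts (middle), and share of all counts in genes with a class j transcript (right); bars are means and points the 2 libraries of each group. Ectoderm stands highest in the middle panel (7.33% and 7.64%), while on the left hPSC and ectoderm overlap at 20.0% to 21.1%.

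The number of different class j transcripts with a read was highest in ectoderm, the deepest group, and also at equal depth. With every library thinned to 503840 reads, ectoderm gave 11142.5 ± 75.7 of them, mesoderm 9883.5 ± 129, hPSC 8975 ± 711 and endoderm 7889 ± 184 (SD, n = 2). Without thinning the ectoderm libraries held 15096 and 14211, those of mesoderm 10037 and 9975, of hPSC 9610 and 8963, and of endoderm 8661 and 8403. The endoderm libraries thus held the fewest although they were deeper than those of hPSC and mesoderm. The assemblies themselves were built at full depth, which thinning does not change. Of the 16780 transcripts held by 1 assembly, 6891 entered through that of ectoderm. The group with the most detected thus also admitted the most, and no test is given.

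Each class j transcript was set against the exons and introns already listed for its gene. The largest class, 9382 transcripts (45.2%) with 46.1% of the class j reads, had no new junction: all their introns were known, in a combination not listed before. Another 4150 (20.0%) used a new splice site without a new exon, and 3121 (15.0%) joined 2 known sites that had not been joined before. A new first exon alone was found in 1323 (6.37%), a new internal exon alone in 960 (4.62%) and a new last exon alone in 776 (3.74%). Another 799 (3.85%) had new exons of more than 1 kind, and for 249 no listed transcript of the gene was at hand. A new exon overlapped no known exon of its gene.

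The share of reads in several of these classes differed between the groups. These shares also pool all genes with a class j transcript and move with their mix. Transcripts with a new last exon took 1.41% ± 0.0850 of the counts of class j genes in hPSC and 1.22% ± 0.0873 in ectoderm, and 1.06% ± 0.0129 and 0.966% ± 0.0438 in endoderm and mesoderm (SD, n = 2; exact permutation p = 0.00952, 0.0333 after Benjamini-Hochberg adjustment over 7 classes). Both hPSC libraries were above all others, and without any 1 of 5 libraries (hPSC 2, ectoderm 2, mesoderm 1 or either endoderm repeat) the adjusted exact p was 0.0533 to 0.0889. New splice sites without a new exon followed the same order, from 5.07% ± 0.372 in hPSC to 3.85% ± 0.124 in mesoderm (adjusted exact permutation p = 0.04). The call was lost without any 1 of the 6 layer libraries. The ESRG transcript described below belongs to this class. It had 750 and 961 reads in hPSC, of 151849 and 141812 reads of genes with a class j transcript. In ectoderm it had 54 and 59, in endoderm 11 and 4, and in mesoderm 0 and 2. The part of this 1 transcript in the fall was not tested.

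New combinations of known junctions stood apart from that order. They took 9.75% ± 0.0276 in ectoderm, 8.84% ± 0.000454 in hPSC, 8.86% ± 0.105 in mesoderm and 8.27% ± 0.0725 in endoderm (SD, n = 2; adjusted exact permutation p = 0.04). New junctions between known sites were lowest in mesoderm, at 2.08% ± 0.0314, against 2.43% ± 0.0742 in hPSC, 2.67% ± 0.0668 in ectoderm and 2.61% ± 0.142 in endoderm (adjusted exact permutation p = 0.04). New exons of more than 1 kind were also lowest in mesoderm, at 0.362% ± 0.00233, and highest in ectoderm, at 0.555% ± 0.0321 (adjusted exact permutation p = 0.0333). Of the new combinations 75.2% were held by 1 assembly, and of those with more than 1 kind 91.4%. Of all 16780 transcripts held by 1 assembly, 6891 entered through that of ectoderm. For these classes, admission and a high ectoderm share therefore cannot be told apart. Without transcripts held by 1 assembly, neither class was called. First exons (1.13% to 1.49%, adjusted exact permutation p = 0.0857) and internal exons (0.598% to 0.822%, adjusted exact permutation p = 0.0778) did not pass the threshold. Of the 3 called here, new combinations lost the call without any 1 layer library other than mesoderm repeat 2, new junctions without any 1 library other than mesoderm repeat 2, and more than 1 kind without any 1 layer library other than ectoderm repeat 1 (adjusted exact p from 0.0533 to 0.0889). First exons were called without either hPSC repeat (0.0333), and internal exons without mesoderm repeat 2 (0.0444).

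**Figure D2:**
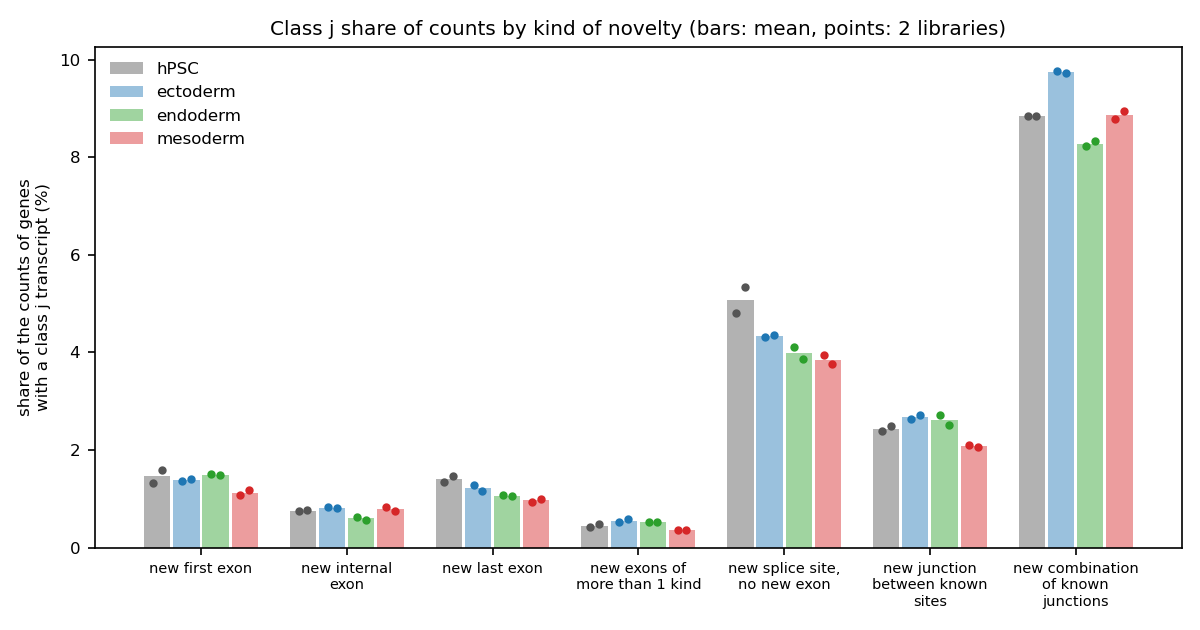
Share (%) of the counts of genes with a class j transcript that fell in each splice class, by group; bars are means and points the 2 libraries. The fall from hPSC to the layers is seen for new last exons (1.41% in hPSC, 0.966% in mesoderm) and new splice sites (5.07% and 3.85%), while new combinations are highest in ectoderm (9.75%).

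New exons had the size of ordinary ones when they were internal and were long when last. The 1665 different new internal exons had a median of 121 nt, against 124 nt for 109302 known internal exons of the same genes, and 35.6% of their lengths were multiples of 3, against 39.6%. The 1382 new first exons had a median of 205 nt and the 1025 new last exons a median of 1550 nt. Among the last exons, 43 (4.2%) were no longer than 30 nt. The 64 transcripts that ended in these took 7650 reads, 2.27% of the class j reads.

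The transcripts held 10912 different junctions not listed before. Both sites were known in 2766, and 2504 of these (90.5%) skipped at least 1 known exon, 1438 of them exactly 1. The length of the single skipped exon was a multiple of 3 in 676 cases (47.0%), against 39.6% of known internal exons. Another 2957 had a new donor only, 2379 a new acceptor only, and in 2810 both sites were new. Of the new acceptors, 39 lay 3 nt from a known one, more than at any other distance up to 10 nt, while of the new donors 17 lay 4 nt away and none lay 3 nt away.

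The bases at splice sites could be read only where a GENCODE 29 exon covers them, which favours introns that lie inside a listed exon. GT stood at 66.5% of 2186 new donors read this way, against 95.0% of 32924 known donors read the same way. AG stood at 76.7% of 2026 new acceptors and 98.3% of 34584 known ones. The new sites of transcripts held by at least 2 assemblies did not carry these letters more often (GT 61.1% of 401, AG 71.3% of 369) than those held by 1 (67.7% of 1785 and 77.9% of 1657). Where both sites were new, the same run of at least 6 bases stood at both ends of the intron, a repeat that allows several placements of it, at 315 of 992 junctions (31.8%), against 619 of 15964 known junctions (3.88%). Of those 315, 20 had GT and AG (6.35%), and of the 677 without such a repeat, 294 had them (43.4%).

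**Figure D3:**
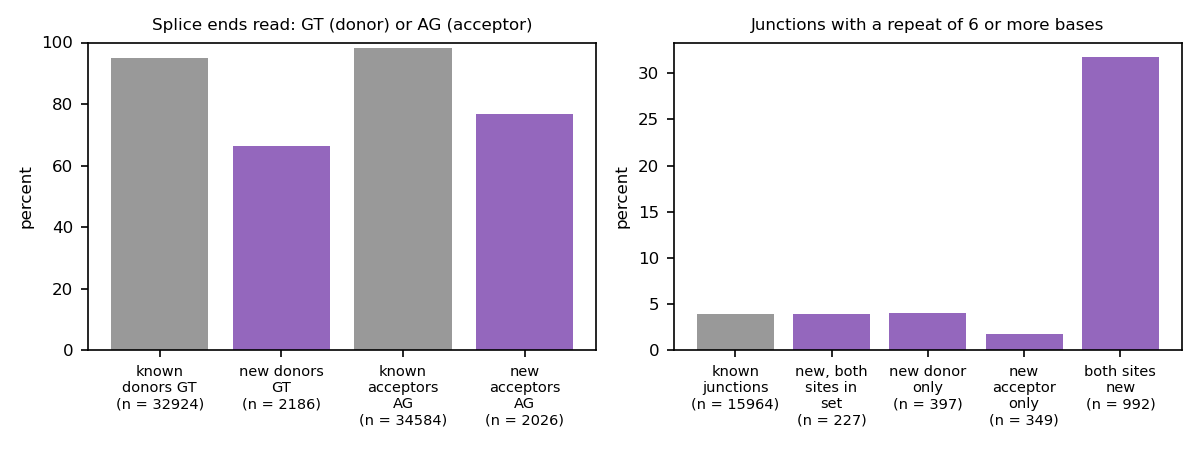
Left, percent of splice sites with GT at the donor or AG at the acceptor among sites whose bases could be read; right, percent of junctions with a repeat of at least 6 bases at both ends, for known junctions (grey) and kinds of new junction (purple), with the number read under each bar. New sites carry the usual letters less often (66.5% against 95.0% for donors), and repeats stand out where both sites are new (31.8% against 3.88%).

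In all, 1156 class j transcripts (5.57%) with 11.8% of the class j reads had an unusual new junction: a new end read as other than GT, GC or AG, such a repeat, or a last exon of at most 30 nt. Their share of the class j reads ran from 10.9% in ectoderm repeat 2 to 13.7% in endoderm repeat 1. Without them the class j share was 19.8% ± 0.0364 in ectoderm, 19.3% ± 0.668 in hPSC, 17.3% ± 0.221 in endoderm and 17.0% ± 0.0285 in mesoderm (SD, n = 2; exact permutation p = 0.0286), so the order of the groups was as with them. That set was chosen after the junctions had been seen.

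Most class j transcripts were held by the assembly of 1 group. These numbered 16780 (80.8%) and took 59.4% of the class j reads, against 36.4% of reference matches held by 1 assembly. Another 2601 were held by 2 assemblies, 923 by 3 and 456 (2.20%) by 4, and the median read number rose from 6 to 12, 22 and 40 in that order. The 456 transcripts held by all 4 took 9.77% of the reads.

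Being held by 1 assembly did not mean that the reads came from 1 group. Of the 200400 reads of these 16780 transcripts, 109629 (54.7%) lay in libraries of the other 3 groups, and 3796 transcripts (22.6%) had no read there. The 3076 held by the hPSC assembly summed to 11076 ± 939 CPM in hPSC (SD, n = 2), and still to 6945 ± 200 in ectoderm, 4860 ± 151 in mesoderm and 3769 ± 5.26 in endoderm. The 6891 of the ectoderm assembly summed to 23048 ± 814 CPM in ectoderm and to 10422 ± 174 in mesoderm. In 11494 cases (68.5%) the transcript was highest in the group whose assembly held it. The sets were formed by the assembly that held the transcript, so this was in part fixed in advance. RBBP4 below is an example: only the mesoderm assembly held it, yet it took much the same share of its gene in every library.

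**Figure D4:**
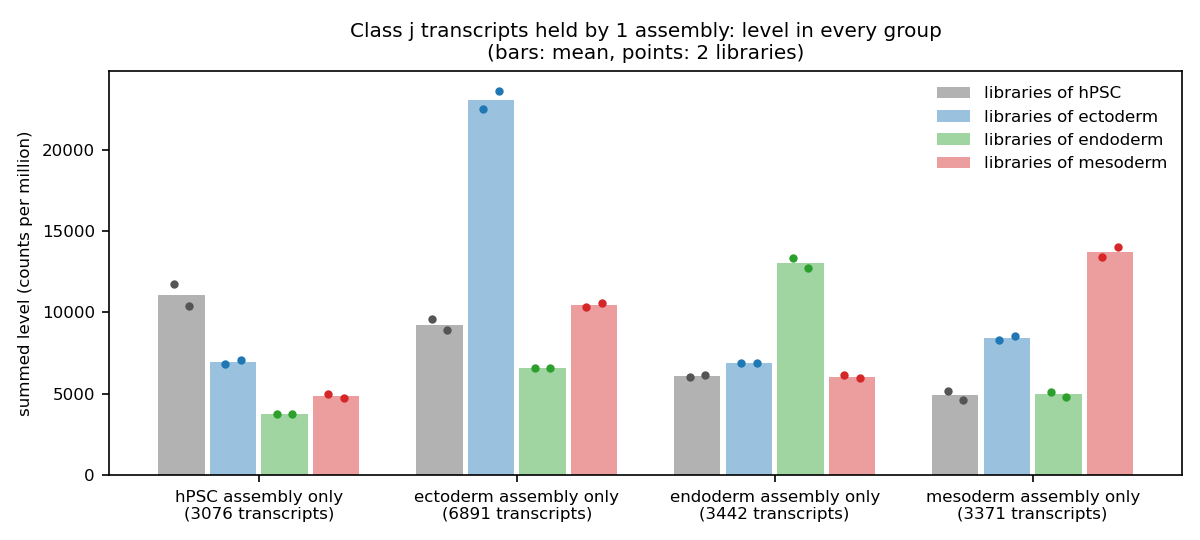
Summed level (CPM) in each group of the class j transcripts held by the assembly of 1 group only; bars are means and points the 2 libraries. The group of the assembly is highest in each set (11076 CPM for hPSC in its own set), which is in part fixed by how the sets were formed. Every other group is well above 0 (3769 to 6945 CPM in the hPSC set).

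The share by number of assemblies also differed between the groups. It pools the same genes, so it too moves with their mix. Transcripts held by all 4 assemblies took 2.52% ± 0.179 of the counts of class j genes in hPSC, 2.01% ± 0.0282 in endoderm, 1.83% ± 0.0235 in ectoderm and 1.63% ± 0.0179 in mesoderm (SD, n = 2; exact permutation p = 0.00952, 0.0381 adjusted over 4 numbers). Transcripts held by 3 were lower in endoderm (2.13% ± 0.0503) and mesoderm (2.18% ± 0.0421) than in hPSC (2.57% ± 0.0310) and ectoderm (2.48% ± 0.0302), with an adjusted exact permutation p of 0.0381. Transcripts held by 1 were highest in ectoderm, at 12.6% ± 0.0129, and lay between 10.9% and 11.5% elsewhere. Of these 16780, 6891 entered through the ectoderm assembly alone, so the group in which they are highest also admitted the most of them, and no test is given. Those held by 2 lay between 3.44% and 3.94% (adjusted exact permutation p = 0.0762). The call for 4 assemblies held without any 1 library. That for 3 was lost without the second repeat of any 1 layer (0.0508 to 0.0762).

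The most abundant class j transcript belonged to HMGA1, an architectural chromatin protein abundant in stem cells. It skips the 114-nt exon of the match (chr6:34237204-34237317) and joins known junctions in a new combination. It had 257 and 457 reads in the hPSC repeats, 380 and 392 in endoderm, 185 and 81 in ectoderm, and 55 and 58 in mesoderm. The 2 hPSC libraries did not resemble each other: the gene had 6427 reads in the first and 1816 in the second, and the transcript took 4% and 25.2% of them. In endoderm it took 15.5% and 22.4%, and in ectoderm and mesoderm between 1.89% and 3.96%. Transcript choice did not pass the test in any layer, with adjusted p (edgeR) of 0.589, 0.747 and 0.116 for ectoderm, endoderm and mesoderm. It is the only class j transcript of HMGA1, and set against all the rest of the gene it fell in mesoderm (log2 fold change -1.45, edgeR adjusted p = 0.0372). That call was lost without hPSC repeat 2 (adjusted p = 0.133), without either endoderm repeat (0.0561 and 0.0534), without either mesoderm repeat (0.362 and 0.371) and with only hPSC and mesoderm fitted (0.107). In endoderm the change against the rest of the gene was -0.31 without hPSC repeat 1 (adjusted p = 0.589) and 1.53 without hPSC repeat 2 (1.51e-06), and in ectoderm -1.89 (1.61e-10) and -0.05 (0.963). Transcript choice in mesoderm passed without hPSC repeat 1 (1.13e-07), with the repeat number as a block (0.0127) and without the filter on low counts (0.00244).

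ESRG, a long non-coding RNA of human pluripotent cells, gave the second. Its class j transcript uses a new acceptor, AG, 305 nt beyond the known one (intron chr3:54632503-54633558, minus strand) and was the main transcript of its gene. The hPSC repeats had 750 and 961 reads of it, those of ectoderm 54 and 59, of endoderm 11 and 4, and of mesoderm 0 and 2. These were 64.8% and 62.0% of the gene in hPSC and 54.0% and 64.1% in ectoderm, and 35.5% and 33.3% in endoderm, where the gene had only 31 and 12 reads. In mesoderm the gene had 0 and 3 reads. Its level fell by 5.13 ± 0.42 (log2 fold change ± SE; edgeR adjusted p = 5.59e-07) in ectoderm and by 6.67 ± 0.49 (adjusted p = 3.74e-07) in endoderm, while its share of the gene did not pass the test in either (adjusted p = 1 and 0.879).

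RBBP4, a histone-binding subunit of several chromatin complexes, and MORF4L1, a chromodomain protein, gave the next. The RBBP4 transcript, which has an intron of 1138 nt inside the last exon of its match, took 53.4% and 54.1% of its gene in hPSC, 55.2% and 49.4% in endoderm, 56.4% and 57.3% in mesoderm, and 56.8% in both ectoderm libraries. The groups differed little: every library lay within 49.4% to 57.3%. It belongs to the transcripts with an unusual new junction described above. The MORF4L1 transcript ends in a new last exon of 6429 nt (chr15:78899425-78905853) reached from a donor with GT. It took 37.7% and 40.3% in hPSC, 32.8% and 31.3% in endoderm, 33.6% and 35.7% in mesoderm, and 36.1% and 37.5% in ectoderm. Neither passed the test of transcript choice in any layer.

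In 28 of the 705 genes with at least 20 reads in every library, class j transcripts took over 50% of the reads in all 8 libraries. They included LRPAP1, a chaperone of lipoprotein receptors (59.6% to 70.4%), PTK2, the focal adhesion kinase (55.9% to 73.5%), EPB41 (58.1% to 84.0%), MAP4, a microtubule-associated protein (56.5% to 74.1%), and CTNNBL1, a splicing factor (83.9% to 98.9%). ATG13 was among them too, with 51.0% to 60.1% outside endoderm and 80.5% and 82.1% in endoderm. These genes, beyond ATG13, were picked by number of reads and familiarity after their values were seen.

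At the level of single transcripts, class j transcripts changed about as often as all transcripts tested. Of 931 that passed the filter on low counts, 253 (27.2%) were higher and 146 (15.7%) lower in ectoderm than in hPSC at an edgeR adjusted p under 0.05. Among all 12440 transcripts tested, 23.7% were higher and 22.2% lower. In endoderm 132 (14.2%) were higher and 119 (12.8%) lower, against 13.1% and 13.7% of all. In mesoderm 147 (15.8%) were higher and 147 lower, against 16.5% and 16.3%. The median log2 fold change of the class j transcripts was 0.44 in ectoderm, against 0.01 over all transcripts, and in endoderm and mesoderm -0.08 and 0.04, against -0.18 and 0.04. Of the 16780 class j transcripts held by 1 assembly, 6891 entered through that of ectoderm. Admission by that assembly and a rise of the class in ectoderm therefore cannot be told apart here. With RLE scaling in place of TMM the median of all transcripts in ectoderm moved by 0.10, and 281 class j transcripts were higher and 134 lower. Without endoderm repeat 1 or 2 the endoderm count was 142 or 130 in place of 251, and in mesoderm it was 448 without hPSC repeat 1 and 182 without mesoderm repeat 2, in place of 294. Most of the 20760 were too rare to be tested.

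Transcript choice asks whether a transcript moves apart from the other transcripts of its gene. Of 829 class j transcripts tested, 10 (1.21%) changed in ectoderm, 2 of them rising and 8 falling, where 1.26% of all 6986 tested transcripts changed (0.83% rising and 0.429% falling). In endoderm 16 (1.93%) changed, 9 rising and 7 falling, against 1.1% of all (0.658% rising and 0.444% falling). In mesoderm 21 (2.53%) changed, 3 rising and 18 falling, against 1.63% of all (0.859% rising and 0.773% falling). By splice class, the 21 in mesoderm were 13 new combinations, 5 new first exons, 2 new junctions between known sites and 1 new splice site, and 5 of the 16 in endoderm and 3 of the 10 in ectoderm had a new first exon. New first exons were 75 of the 829 tested. These counts rested on single libraries. In ectoderm 0 were called by edgeR without ectoderm repeat 2 (46 of 1191 had an unadjusted p under 0.05), 2 without ectoderm repeat 1, 5 without hPSC repeat 2 and 19 without hPSC repeat 1. In endoderm 1 was called without endoderm repeat 1, 4 without endoderm repeat 2, 8 without either ectoderm repeat and 27 without hPSC repeat 2. In mesoderm it was 1 without mesoderm repeat 2, 3 without mesoderm repeat 1, 13 without ectoderm repeat 1 and 32 without hPSC repeat 1.

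With all class j transcripts of a gene summed and set against its other transcripts, 27 of 1323 genes (2.04%) changed in ectoderm, 6 with a higher class j share (0.454%) and 21 with a lower one (1.59%). In endoderm 23 (1.74%) changed, 14 higher (1.06%) and 9 lower (0.68%), and in mesoderm 43 (3.25%), 13 higher (0.983%) and 30 lower (2.27%). The 3 comparisons share the hPSC libraries. Leaving out 1 library moved these counts too: in ectoderm they were 3 and 4 without either ectoderm repeat, 44 and 15 without either hPSC repeat, and 10 to 14 without any 1 other library. In endoderm they were 0 (edgeR; 156 of 1698 genes had an unadjusted p under 0.05) and 6 without endoderm repeat 1 and 2, 60 without hPSC repeat 2 and 14 without either ectoderm repeat. In mesoderm they were 7 and 3 without either mesoderm repeat, 27 without hPSC repeat 2, and 21 to 24 without any 1 ectoderm or endoderm repeat. Among these genes was CTNND1, whose 3 class j transcripts together took 7.44% and 6.04% of the gene in hPSC, 19.6% and 19.3% in ectoderm and 20.4% and 24.2% in endoderm.

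The largest changes in transcript choice per layer follow, ordered by what the transcripts change. Only genes with a symbol and at least 20 reads in each library compared were considered. A larger fall in ectoderm, in a gene with fewer reads, is left out. The transcripts were selected for these changes, so the sizes describe the selected transcripts. First are 3 that include a short internal exon. CTNND1 encodes p120 catenin, which binds cadherins at cell junctions. Its class j transcript with the 18-nt exon had 2 and 5 reads in the hPSC repeats and 5 and 4 in mesoderm, against 48 and 44 in ectoderm and 26 and 10 in endoderm. That was 1.65% and 2.75% of the gene in hPSC and 1.97% and 1.57% in mesoderm, against 9.80% and 9.15% in ectoderm and 12.6% and 8.33% in endoderm. Ectoderm and endoderm lay above hPSC and mesoderm without overlap. The rise passed the test in both (edgeR adjusted p = 0.0417 and 0.0247) and in neither without any 1 of the 8 libraries (adjusted p from 0.0696 to 0.768).

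MYH10 encodes the heavy chain of non-muscle myosin IIB, which drives contraction of the cell cortex. The class j transcript with the 30-nt exon had 184 and 171 reads in ectoderm and 48 and 59 in mesoderm, against 7 and 13 in hPSC and 4 and 5 in endoderm. Its share of the gene was 5.04% and 7.69% in hPSC, 24.4% and 24.7% in mesoderm, 17.1% and 18.4% in ectoderm, and 5.48% and 9.80% in endoderm. The share rose in mesoderm (adjusted p = 0.00786, 0.136 and 0.204 without either mesoderm repeat, and 0.134 without the filter on low counts), and in ectoderm the adjusted p was 0.0959. The match without the exon took 58.3% and 57.4% in hPSC and 26.9% and 32.2% in mesoderm.

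ADD1 encodes alpha-adducin, which caps actin filaments and ties them to spectrin. The class j transcript has the 34-nt exon and also an upstream exon shortened by 93 nt, from 345 to 252 nt. It took 29.3% and 29.5% of the gene in hPSC, 11.6% and 13.4% in mesoderm, 6.44% and 7.34% in ectoderm, and 5.26% and 5.84% in endoderm. All layers were below hPSC without overlap. The fall passed the test in ectoderm (adjusted p = 0.00029) and endoderm (0.000123), and not in mesoderm (0.082). Without either ectoderm repeat the first was 0.159 and 0.184, and without endoderm repeat 1 the second was 0.0728.

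ATG13 encodes a subunit of the kinase complex that starts autophagy. The class j transcript without the 56-nt exon (chr11:46630045-46630100) was held by all 4 assemblies. It had 207 and 188 reads in endoderm, 84 and 73 in ectoderm, 22 and 21 in mesoderm, and 18 and 34 in hPSC. In endoderm it took 71.4% and 67.9% of the gene, against 14.6% and 15.7% in hPSC, 22.3% and 24.5% in ectoderm, and 15.5% and 21.4% in mesoderm. The match with the exon went from 30.9% and 32.9% in hPSC to 6.55% and 6.50% in endoderm. The rise passed the test (adjusted p = 0.00231), with 0.0687 without endoderm repeat 1. Another 2 class j transcripts of ATG13 fell in endoderm, from 16.7% to 4.05% (adjusted p = 0.0201) and from 11.8% to 2.31% (adjusted p = 0.016) in the means.

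Other transcripts differ in where they start. VPS52 encodes a subunit of a complex that tethers vesicles at the Golgi. Its class j transcript starts at a first exon of 141 nt (chr6:33271905-33272045) in place of that of the match (chr6:33271586-33271876), and the rest of its introns are the same. It took 45.9% and 41.5% of the gene in endoderm, against 7.69% and 9.30% in hPSC, 11.6% and 6.73% in ectoderm, and 5.00% and 12.1% in mesoderm. Endoderm lay above every other library (adjusted p = 0.0101, and 0.0978 and 0.178 without either endoderm repeat). ELAC2 encodes the enzyme that trims the 3' end of tRNA precursors. Its class j transcript starts at an exon of 117 nt (chr17:13017567-13017683) and took 16.8% and 32.4% in mesoderm and between 3.12% and 5.68% elsewhere (adjusted p = 0.0225, and up to 0.533, no longer passing, without any 1 of 5 libraries: hPSC repeat 1 and both ectoderm and mesoderm repeats).

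NADK encodes the kinase that makes NADP in the cytosol. The transcript from the upstream first exon (chr1:1779905-1780181) had 21 and 37 reads in hPSC and at most 5 in any other library. It took 36.2% and 71.2% of the gene in the hPSC repeats, against 0% and 10.0% in endoderm, 2.70% and 0% in mesoderm, and 7.35% and 3.51% in ectoderm. The gene itself had 18 to 68 reads in these libraries. The hPSC libraries were far apart and above all others. The fall passed the test in ectoderm (adjusted p = 0.0415) and mesoderm (0.0175). It did not pass in ectoderm without hPSC repeat 2 or any 1 ectoderm or mesoderm library (0.101 to 0.631), nor in mesoderm without ectoderm repeat 1 or either mesoderm repeat (0.0669 to 0.488).

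SLC39A10 encodes the zinc importer ZIP10. Its class j transcript begins at a new first exon of 151 nt (chr2:195586267-195586417), 10335 nt from the nearest known donor. It took 55.3% and 35.0% of the gene in hPSC and 4.09% and 3.84% in ectoderm, where the gene itself rose from 47 and 40 reads to 807 and 755. In mesoderm it had no read among 74 and 80 of the gene, which allows a share of up to 4.05% and 3.75%. The gene has 2 class j transcripts, and together they still took 44.6% and 27.5% of it in mesoderm, against 57.4% and 47.5% in hPSC. The reads of the transcript with the new first exon in ectoderm, 33 and 29, were no fewer than the 26 and 14 in hPSC. The fall in its share passed the test in ectoderm (edgeR adjusted p = 0.00029) and in mesoderm (0.000305). The call in ectoderm was lost without either ectoderm repeat, and that in mesoderm was kept without any 1 library.

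CGNL1, a tight junction protein, and BBS9, a subunit of the BBSome that moves cargo into cilia, also had class j transcripts with other starts. That of CGNL1 begins at a new first exon of 124 nt (chr15:57386177-57386300) and took 26.1% and 32.0% in hPSC and 5.94% and 6% in endoderm, with 10.0% and 28.6% in ectoderm and 6.38% and 12.5% in mesoderm. The fall in endoderm (adjusted p = 0.0243) did not pass without any 1 of the 8 libraries (0.0682 to 0.519). That of BBS9 starts inside the gene and joins known sites at chr7:33352050-33352858. It took 45.8% and 49.0% in hPSC, 31.4% and 28.1% in endoderm, 25.2% and 25.9% in ectoderm, and 3.03% and 2.63% in mesoderm, from 1 read in either library. No groups overlapped, and the fall in mesoderm passed the test (adjusted p = 0.00713, 0.225 and 0.335 without either mesoderm repeat).

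The remaining selected transcripts were less abundant. NUP210, a nuclear pore membrane protein, had a new internal exon of 1758 nt (chr3:13347090-13348847) in 26.7% and 36.1% of its hPSC reads and 5.98% and 8.29% of its ectoderm reads (adjusted p = 0.0115, 0.0708 to 0.613 without hPSC repeat 2 or either ectoderm repeat). FOCAD, focadhesin, had a transcript that skips 2 known exons and ends early, with 39 and 25 reads in ectoderm and at most 4 elsewhere. It took 19.0% and 12.1% of the gene in ectoderm against 2.63% and 0% in hPSC (adjusted p = 0.0245, 0.0503 to 0.507 without hPSC repeat 2, endoderm repeat 2 or either ectoderm repeat).

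Some of these calls were also lost in fits that kept every library. With only hPSC and the layer fitted, the changes of NADK in ectoderm and mesoderm, CTNND1 in ectoderm, and FOCAD, BBS9 and ELAC2 no longer passed. Without the filter on low counts, those of CTNND1 in both layers, CGNL1, FOCAD and ELAC2 did not. With the repeat number as a block, those of CTNND1 in both layers, CGNL1, and NADK in ectoderm did not. Without transcripts held by 1 assembly, those of CTNND1 and NADK in ectoderm did not. That last fit could not test the transcripts of SLC39A10, NUP210, FOCAD, CGNL1, VPS52 and ELAC2, each held by 1 assembly only. The adjusted p (edgeR) of the calls lost in these fits ran from 0.0513 to 0.365.

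**Figure D5:**
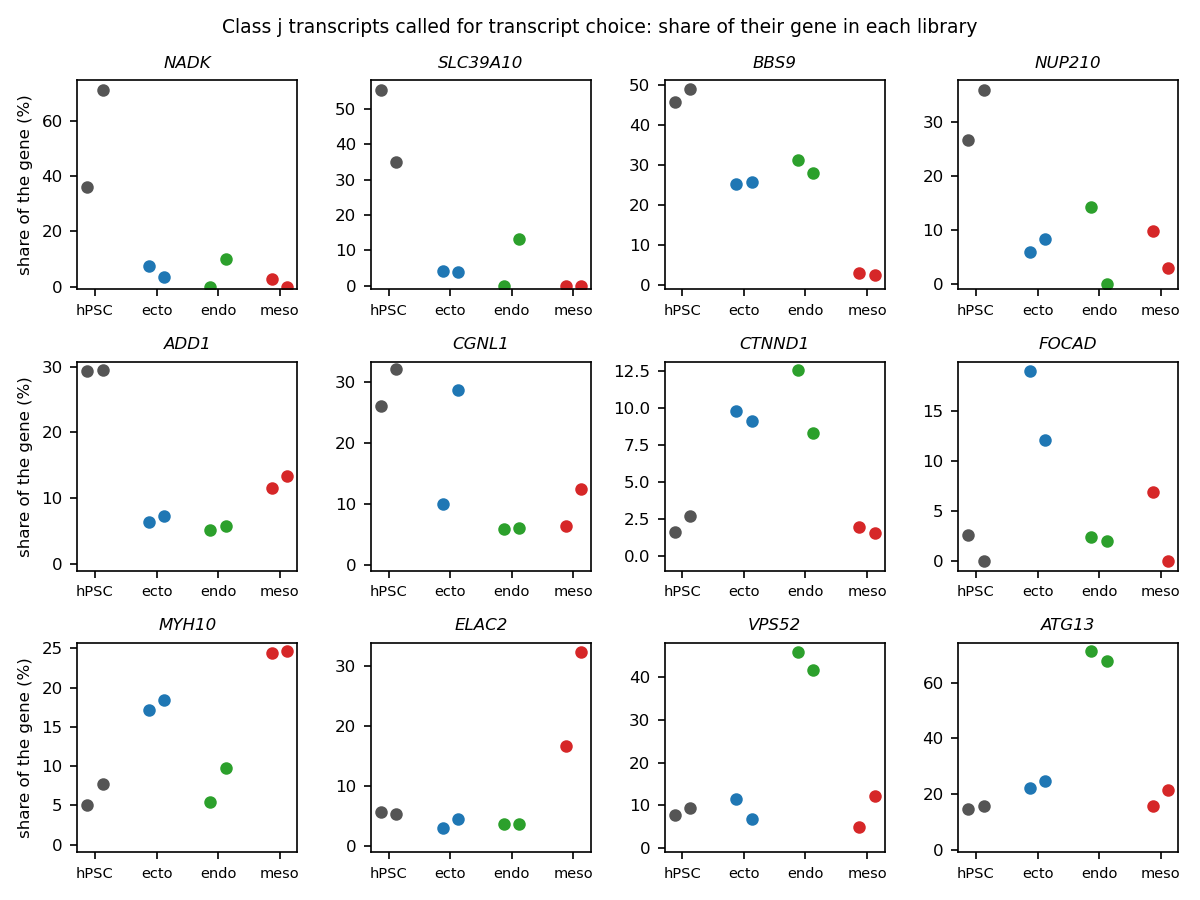
Share (%) of the gene's counts in each library for 12 class j transcripts selected for a change in transcript choice; each point is a library, and each panel has its own axis. ATG13 (71.4% and 67.9%) and VPS52 (45.9% and 41.5%) stand out in endoderm, MYH10 (24.4% and 24.7%) in mesoderm, and ADD1 (29.3% and 29.5%) in hPSC.

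The 3 most abundant transcripts with a new first exon belonged to IGF2BP1 and ADGRL2. IGF2BP1, an RNA-binding protein of early development, had a pair of them from the same new exon of 102 nt (chr17:48997137-48997238) that differ in the next acceptor. The first took 34.5% to 46.8% of the gene over all libraries and the second 8.41% to 16.1%. ADGRL2, an adhesion receptor of the latrophilin family, had a new first exon of 900 nt (chr1:81801330-81802229) with 118 and 112 reads in ectoderm, 18 and 15 in mesoderm, 8 and 0 in hPSC and 0 in endoderm. It took 28.0% and 28.7% of the gene in ectoderm, 18.8% and 12.4% in mesoderm, 21.6% and 0% in hPSC and 0% in endoderm, where the gene had 10 and 5 reads. The hPSC repeats were far apart, with 37 and 19 reads of the gene. None of the 3 passed the test of transcript choice.

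Among those with a new internal exon, ENSG00000291063 on chromosome 17, a gene listed without a symbol, had a pair that took nearly all of its reads. One took 45.9% to 53.3% and the other 45% to 51.9%. New here means absent from the exons listed for this gene. GENCODE 29 transcripts cover the bases at both ends of a new internal exon of the other transcript (chr17:31033295-31033365). That exon is therefore new for this gene label but not for GENCODE 29 as a whole. VPS37C, a subunit of the ESCRT-I sorting complex, had a new exon of 45 nt (chr11:61134302-61134346) in 48.7% to 79.3% of its reads, of which there were 14 to 71 in a library. Among those with a new last exon, HNRNPA1, a splicing regulator, and RPS3A, a ribosomal protein, ended in exons of 27 and 22 nt that lay behind introns of 54014 and 22235 nt. They took 21.4% to 26.4% and 44.2% to 50.9% of their genes. The HNRNPA1 intron begins with TT and that of RPS3A with GT, and their far ends could not be read. None of these 5 passed the test of transcript choice in any layer.

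The class j transcripts of the gene lists are given next. No share over all genes with reads stands beside these numbers, so they do not set a list apart. Of 8 pluripotency markers, 3 held 16, and LIN28A, which blocks let-7 maturation, took 64.7% of their 2461 reads. Its transcript with an intron of 544 nt inside the last exon of its match took 61.2% and 65.0% of the gene in mesoderm, 52.8% and 46.4% in endoderm, 37.1% and 32.6% in hPSC, and 35.5% and 28.3% in ectoderm. Both endoderm and both mesoderm libraries were above the rest, but the choice test was not passed (adjusted p = 0.916 and 0.402). This transcript too has an unusual new junction. As a share of the whole list, class j reads were 11.7% and 11.9% in hPSC and 41.9% and 38.3% in mesoderm, where the list as a whole was at 418 and 425 CPM. That share pools 8 genes, so it also moves with their mix. The list was at 4483 and 4197 CPM in hPSC, while the LIN28A transcript had 156 and 112 reads there and 74 and 67 in mesoderm. The part of the mix was not tested. None of the 4 tested class j transcripts of the list passed the test of transcript choice, which 1.21% to 2.53% of all tested class j transcripts did, so a count of 0 does not set the list apart.

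None of the 7 ectoderm or 4 neural crest markers held a class j transcript. The neural crest list summed to only 3.42 to 29.8 CPM over the libraries. Of 7 endoderm markers, 2 held 11, led by an EOMES transcript with a new first exon of 52 nt (chr3:27720868-27720919) that took 27.1% and 26.8% of this T-box factor's reads in endoderm. The mesoderm list held 2, led by BMP4 with 28 reads, the amnion and trophoblast list 1, of TFAP2A with 12 reads, and the fibroblast and endothelial list 1, of CDH5 with 6.

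The last 3 lists hold splicing regulators and known targets of regulated splicing. Their shares pool all genes of a list, so they also move with the mix of genes, which was not tested. Of 27 splicing regulators, 14 held 67. Class j reads took 9.05% and 10.6% of the list in ectoderm, 8.95% and 8.57% in mesoderm, 6.72% and 7.44% in endoderm, and 5.24% and 3.39% in hPSC. Of their 9 tested class j transcripts, 5 were higher in ectoderm, 3 in mesoderm and 0 in endoderm, and none was lower, where 27.2%, 15.8% and 14.2% of all tested class j transcripts were higher. The most abundant belonged to SRSF5, a serine and arginine rich splicing factor, with 101 and 94 reads in ectoderm and at most 17 elsewhere, at 16% and 17.6% of the gene in ectoderm and 11.3% and 10.7% in hPSC.

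Of 17 targets of epithelial to mesenchymal splicing, 12 held 51, and class j reads took 14.1% and 15.0% of the list in ectoderm against 5.62% to 9.57% elsewhere. The CTNND1 transcript was the only 1 of the 3 tested for choice that changed, rising in ectoderm and endoderm. The most abundant was of ENAH, the actin regulator Mena, at 16.3% and 15.4% of the gene in ectoderm and 17.0% and 22.2% in hPSC. Of 15 cytoskeleton targets, 8 held 99, with 15.5% and 16% of the list in ectoderm, 9.72% and 9.02% in hPSC, 6.49% and 8.20% in endoderm, and 4.69% and 4.75% in mesoderm. The most abundant was of FN1, fibronectin, which skips a 267-nt exon (chr2:215372109-215372375). It had 191 and 183 reads in mesoderm, 3.24% and 3.31% of the gene there, and 6.67% and 7.63% in endoderm. The FN1 match alone had 3459 and 3369 reads in mesoderm, against 36 and 41 in hPSC. FN1 therefore weighs more in the mesoderm share of the list than in that of hPSC. None of the 9 tested cytoskeleton transcripts passed the test of transcript choice, which with 1.21% to 2.53% of all called does not set this list apart either.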

How the data were processed

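The authors deposited raw read counts per transcript of a combined assembly and the assembly itself. The 2 endoderm columns, recorded under the unit expected counts, hold whole raw counts as deposited, like the others, and nothing was rounded. Other deposited values used were the class codes, assembly numbers and exon positions of the annotation, per the file headers. The submitters' processing notes name minimap2, StringTie and GRCh38. The counter, versions and annotation release are not given in the sources used here, nor whether strand was used, so reads of overlapping genes or near-identical copies are uncertain.

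Shares are class j reads over all reads of genes with a class j transcript, by listed gene. Known exons and introns were those of GENCODE 29 and of class = transcripts of the gene. The chains of 51 class j transcripts equal one of GENCODE 29, and they were kept. No genome sequence was used: bases come from GENCODE 29 transcripts. The count table lists no value for 228 class j transcripts of the assembly, which were not analysed here. Counts were tested with edgeR 4.0.16 (TMM, filterByExpr at a minimum count of 10, 1 quasi-likelihood fit over the 8 libraries, diffSpliceDGE for choice, Benjamini-Hochberg at 0.05). All tests are two-sided. DESeq2 1.42.0 was an alternative. On simulated data with 200 of 12440 transcripts changed 4-fold, the fit recovered 66.5% (ectoderm), 51.5% (endoderm) and 52% (mesoderm).

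Named transcripts were the 4 with most reads, the 3 largest rises and falls in share per layer among those called with a symbol and at least 20 gene reads in each library of the layer and of hPSC, the 3 most abundant with a new first, internal or last exon, and the largest of each list. Ectoderm had only 2 such rises, and some transcripts were selected in more than 1 layer. Some selected transcripts and sequences are not reported here. Members, lists and tests were chosen with earlier results of these data known. A count of 0 was read as allowing 3 counts; that limit covers counting error only. The number of repeats, 2, limits all precision.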

Additional observations from a re-analysis of the deposited data

Results flagged for a closer look

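In several splice classes both repeats of one layer lay above both hPSC repeats while both repeats of another layer lay below them. None of these differences between layers was tested. The values are the distance between the layers' mean differences from hPSC, in percentage points. New internal exons were higher in ectoderm and lower in endoderm, 0.224 apart. New exons of more than 1 kind were higher in ectoderm and lower in mesoderm, 0.192 apart, and higher in endoderm and lower in mesoderm, 0.168 apart. New junctions between known sites were higher in ectoderm or endoderm and lower in mesoderm, 0.592 and 0.532 apart. New combinations of known junctions were higher in ectoderm and lower in endoderm, 1.48 apart. Transcripts held by 1 assembly were higher in ectoderm and lower in mesoderm, 1.75 apart. The ELAC2 transcript took a larger share of its gene in mesoderm and a smaller one in ectoderm and endoderm, 20.7 and 20.9 apart, and it had been selected for its rise in mesoderm.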

How the results depend on the processing

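Shares are given as the range of the 4 group means in percentage points (2.75 for all class j transcripts). Leaving out transcripts with fewer than 10 counts changed that range to 3.27, those held by 1 assembly to 3.37 and the median over genes to 2.19, and with the replicate block it was 2.75. None of these passed (exact p from 0.0571 to 0.257). Without transcripts held by 1 assembly, 5 classes lost their call: new last exons (0.406), more than 1 kind (0.0836), new splice sites (2.39), new junctions (0.723) and new combinations (1.73). With new exons defined by their splice sites, last exons (0.911), more than 1 kind (0.739), new junctions (0.592) and new combinations (1.48) lost it. New combinations (0.694) lost it without transcripts of fewer than 10 counts, where the range for transcripts held by 1 assembly was 1.57. New junctions lost it over all library counts (0.297) and without unusual junctions (0.622). New internal exons passed over all library counts (0.141) and against matched transcripts only (0.516), as did transcripts held by 2 assemblies over all library counts (0.529).

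Leaving out 1 library gave ranges of 2.73 to 2.95 for all class j transcripts, 0.319 to 0.473 for new first exons, 0.19 to 0.258 for new internal exons, 0.383 to 0.503 for new last exons, 0.17 to 0.215 for more than 1 kind, 0.959 to 1.48 for new splice sites, 0.545 to 0.639 for new junctions, 1.43 to 1.53 for new combinations, and 1.71 to 1.78, 0.473 to 0.586, 0.397 to 0.468, 0.76 to 1.01 for 1, 2, 3 and 4 assemblies. Class j transcripts called in level then numbered 278 to 556 in ectoderm, 130 to 363 in endoderm, 182 to 448 in mesoderm. Those called in choice numbered 0 to 19 in ectoderm, 1 to 27 in endoderm, 1 to 32 in mesoderm. Genes called for their summed class j share numbered 3 to 44 in ectoderm, 0 to 60 in endoderm, 3 to 58 in mesoderm. Such a fit leaves 1 library in a group, assumed to vary like the others.

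Calls of level fell to 210, 107 and 143 (ectoderm, endoderm, mesoderm) without transcripts held by 1 assembly and to 179, 104 and 158 with DESeq2, to 135 in endoderm without the filter on low counts, and to 195 in mesoderm with only hPSC and the layer fitted. Calls of choice fell to 1, 5 and 12 without transcripts held by 1 assembly, to 6 (ectoderm) and 5 (mesoderm) with only hPSC and the layer, and to 10 in endoderm without the filter. Genes called fell to 2, 6 and 21 without transcripts held by 1 assembly, to 9, 15 and 14 with only hPSC and the layer, and to 14, 15 and 27 with the replicate block. Without the filter they were 35 in endoderm and 26 in mesoderm. Repeats with the same number did not deviate together (r from -0.03 to 0.13 between groups), so the numbers were not taken as pairs.

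For the 16 calls of named transcripts, 216 refits gave 142 that passed and 74 that did not, and 0 turned in direction. SLC39A10 in mesoderm passed in all 13 of its refits. Its transcript was held by 1 assembly, so the refit without such transcripts could not test it. The causes of these changes were not tested. Depth limits the rest: 60.0% of class j transcripts had fewer than 10 reads in all.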
